A study of Mus musculus with 37 samples.

Results

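Krüppel-like factors are transcription factors that bind GC-rich and CACCC sequences of DNA through zinc fingers at their carboxyl end. Some members recruit coactivators and others recruit the corepressors CtBP or Sin3A, so that the family both raises and lowers transcription. In lymphocytes KLF2 is known for holding resting cells quiescent and for maintaining the sphingosine phosphate receptor S1PR1, which lets a cell leave tissue.

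The 8 members described here are Klf2, Klf3, Klf4, Klf6, Klf7, Klf10, Klf12 and Klf13, chosen by gene name from the 53700 Ensembl genes counted in each of 37 libraries. No measured value entered that choice, but it was made with earlier results of these data known. Bulk RNA-seq was done on uterine NK (uNK) cells from the pregnant uterus of C57BL6 mice at gestation day 9.5 to 10.5, with SMART-Seq v4 cDNA and Nextera XT libraries. The sort took live cells lacking T cell markers and high CD11b, among others, that carried CD45 and NKp46, and split them by NKG2A and Ly49C/I, inhibitory receptors for MHC class I through which NK cells are educated. Cells with neither receptor are called uneducated here, NKG2A+ cells lacked Ly49C/I, Ly49C/I+ cells lacked NKG2A, and cells with both were not collected.

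The WT mice gave 9 uneducated, 9 NKG2A+ and 6 Ly49C/I+ libraries, and mice labelled NKG2A KO gave 8 uneducated and 5 Ly49C/I+ libraries. The paper lists the antibody for this stain under the name NKG2AC/E, so the NKG2A gate may not rest on NKG2A alone. In mice lacking NKG2A the stain cannot mark NKG2A, and what else it marked there is not given. The uneducated gate of those mice may therefore not take the same cells as in WT mice. Klrc1, which encodes NKG2A, was at 495 to 753 CPM in NKG2A+ libraries and at no more than 13.9 CPM in any other library of either genotype, so its level did not check the KO label. The labels name no batch, so genotype and batch cannot be told apart. They do not say that libraries came from separate animals, so p-values measure the spread between libraries. Numbers of the Ly49C/I+ WT libraries (1, 2, 4, 5, 7 and 8) follow the sample descriptions rather than the titles, and the description of uneducated WT library 5 repeats that of library 4.

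Between 13287163 and 18875033 reads per library were counted on genes (median 17273311), and between 13982 and 17859 genes were detected. The libraries with fewest genes were NKG2A+ WT 9, uneducated WT 5, Ly49C/I+ WT 5 and Ly49C/I+ NKG2A KO 5, and they are named below where a result rests on them. Levels are given as CPM, the usual counts per unit of library size (reads on genes, after TMM scaling). Ncr1, which encodes NKp46, was at 463 CPM or more in every library and Eomes at 244 CPM or more, whereas the 6 T cell markers summed to 85.8 to 242 CPM, led by Cd3g at up to 183 CPM, and Cd3e reached at most 32.9 CPM. In bulk samples, fewer cells with a transcript and less RNA per cell cannot be told apart. The reads carried no molecular identifiers, and a limit from a count of 0 covers counting error alone.

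Klf6 and Klf2 were the most abundant members in uNK cells. Levels were compared between genes per kilobase of exon sequence, as the mean over the 37 libraries. Klf6, a broadly expressed early-response factor, was at 157 ± 27.3 CPM per kilobase (SD), and Klf2 was at 116 ± 55.0. Klf10, a TGF-beta-induced repressor, came next at 24.1, followed by Klf13, an activator of the chemokine gene Ccl5 in T cells, at 13.4. Klf3, a repressor that binds CtBP, was at 3.35, Klf7 at 3.34, Klf4, a factor tied to cell-cycle exit, at 2.75, and Klf12, another repressor of the CtBP-binding kind, at 0.930. Klf6, Klf2, Klf10, Klf13 and Klf12 kept these ranks within each of the 5 groups, while Klf3, Klf7 and Klf4 changed places with each other.

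**Figure D1:**
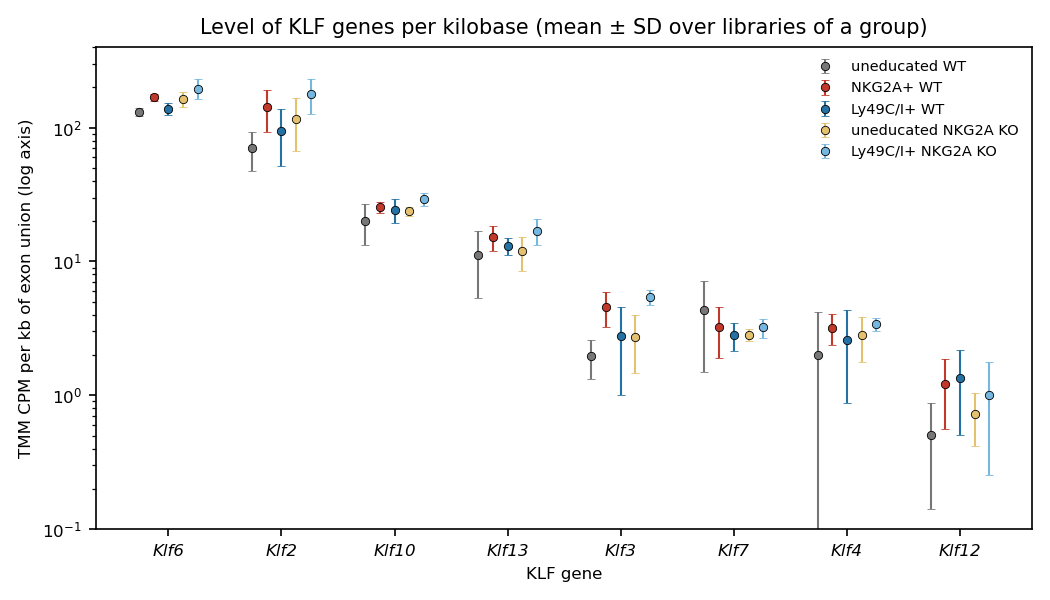
CPM per kilobase of exon sequence (log axis) of the 8 members in the 5 groups; points are group means and bars the SD over libraries. Klf6 and Klf2 lie highest and Klf12 lowest in every group. For Klf4 in uneducated WT cells the SD exceeds the mean, so its lower bar runs off the log axis.

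All 8 members have annotated exons in GRCm38 (GENCODE M21), given here for the longest transcript. Klf2 lies at chr8:72319033-72321656 on the plus strand with 3 exons, and Klf3 at chr5:64803388-64832901, plus, with 6. Klf6 is at chr13:5861482-5870394, plus, with 4 exons, and Klf4 at chr4:55527143-55532466, minus, with 5. Klf7 is at chr1:64029447-64122282, minus, with 4 exons, and Klf10 at chr15:38291463-38300706, minus, with 4. Klf12 spans chr14:99870632-100284679, minus, with 8 exons, and Klf13 spans chr7:63886351-63938915, minus, with 2. The kit does not mark strand. An opposite-strand lincRNA, Gm26649, shares 39.3% of the exon bases of Klf7, so reads of that pair cannot be told apart, and no CPM of Gm26649 is available here. Gm20033 shares 3.59% of the exon bases of Klf3 and had a median of 0.163 CPM. Stretches of 50 bases also found in other genes made up 4.28% of Klf12, 0.350% of Klf3, 0.263% of Klf4, 0.147% of Klf13 and 0% of Klf2, Klf6, Klf7 and Klf10.

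The promoter sequences of Klf2, Klf3 and Klf6 are shown because these were the members that passed the test between NKG2A+ and uneducated WT cells. They are the stretch of at most 250 bases just upstream of the annotated gene start (RefSeq, GRCm38.p6), all on the plus strand, at chr8:72318812-72319032, chr5:64803271-64803387 and chr13:5861239-5861481. Capitals mark matches on either strand to any of 4 motifs. The GC box was searched as GGGCGG and the CACCC box by the letters of its name, and these may share bases. For FOXO factors the motif was read as TGTTTAC, and the MEF2 consensus was the other motif searched.
Klf2: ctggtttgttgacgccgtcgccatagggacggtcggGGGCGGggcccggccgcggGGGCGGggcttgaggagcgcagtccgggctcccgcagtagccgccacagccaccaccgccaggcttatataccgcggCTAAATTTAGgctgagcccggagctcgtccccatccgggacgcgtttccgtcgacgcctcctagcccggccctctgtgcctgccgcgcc
Klf3: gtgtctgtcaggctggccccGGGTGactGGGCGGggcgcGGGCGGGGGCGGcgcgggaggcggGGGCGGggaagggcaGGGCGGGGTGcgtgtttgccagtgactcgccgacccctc
Klf6: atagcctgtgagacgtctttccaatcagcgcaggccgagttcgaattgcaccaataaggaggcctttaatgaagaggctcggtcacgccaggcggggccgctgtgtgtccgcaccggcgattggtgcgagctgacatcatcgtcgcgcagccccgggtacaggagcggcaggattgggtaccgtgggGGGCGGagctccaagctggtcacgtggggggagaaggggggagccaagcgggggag
The Klf2 stretch (221 bases, 71.5% GC) held 2 GC boxes and 1 motif of MEF2, a factor known to act on the Klf2 promoter. The Klf3 stretch (117 bases, 79.5% GC) held 5 GC boxes and 2 CACCC boxes, and the Klf6 stretch (243 bases, 64.2% GC) held 1 GC box. Among 32851 promoter windows of 250 bases, 32.7% held a GC box, 52.0% a CACCC box, 3.20% a MEF2 motif and 3.17% a FOXO motif, and the median GC content was 52.4%. In the whole windows of the same 250 bases, which run past the gene start, Klf2 held 1 CACCC box and 2 GC boxes, Klf3 held 5 and 6, and Klf6 held 0 and 1. A match is a description of the letters and not a binding site. Of the 8 members, 7 had a RefSeq promoter.

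The first comparison asked how educated NKG2A+ cells differ from uneducated cells in WT mice. Klf2, Klf3 and Klf6 were higher in NKG2A+ cells, Klf2 and Klf3 by over 1 on the log2 scale and Klf6 by less, and no member was lower by the test. Of 7 members tested 3 passed, all higher, against 15.0% of the 9339 genes tested, or 7.47% counting higher genes alone. The median log2 fold change was 0.44 over the 7 members and 0.01 over all genes. Tests were edgeR's quasi-likelihood test with Benjamini-Hochberg adjustment over all genes tested, with a threshold of 0.05, unless another test is named. Lack of overlap between libraries is a description throughout, since the share of all genes without overlap is not given.

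Klf2 ranged from 71.0 to 196 CPM (median 117) in uneducated libraries and from 128 to 446 CPM (median 251) in NKG2A+ libraries. Of the 9 NKG2A+ libraries, 8 lay above the highest uneducated one. This gave a log2 fold change of 1.02 ± 0.21 (SE), with an adjusted p of 0.00170 by edgeR. Klf3 ranged from 10.2 to 37.0 CPM (median 20.6) in uneducated libraries and from 30.6 to 75.1 CPM (median 49.3) in NKG2A+ libraries. Here 7 of the 9 NKG2A+ libraries exceeded every uneducated one, and all 9 exceeded the uneducated median. Its log2 fold change was 1.22 ± 0.21 (SE, adjusted p = 0.000294 by edgeR).

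Klf6 ranged from 518 to 620.0 CPM (median 567) in uneducated libraries and from 651 to 794 CPM (median 747) in NKG2A+ libraries. The groups did not overlap, although the fold change was smaller than that of Klf2 or Klf3. It came to 0.36 ± 0.06 on the log2 scale (SE), with an adjusted p of 0.000276 by edgeR. Klf2, Klf3 and Klf6 passed in all 11 alternative settings tried and without each of the 18 libraries in turn. Over those runs the log2 fold change lay between 0.89 and 1.12 for Klf2, between 1.13 and 1.35 for Klf3 and between 0.26 and 0.39 for Klf6.

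**Figure D2:**
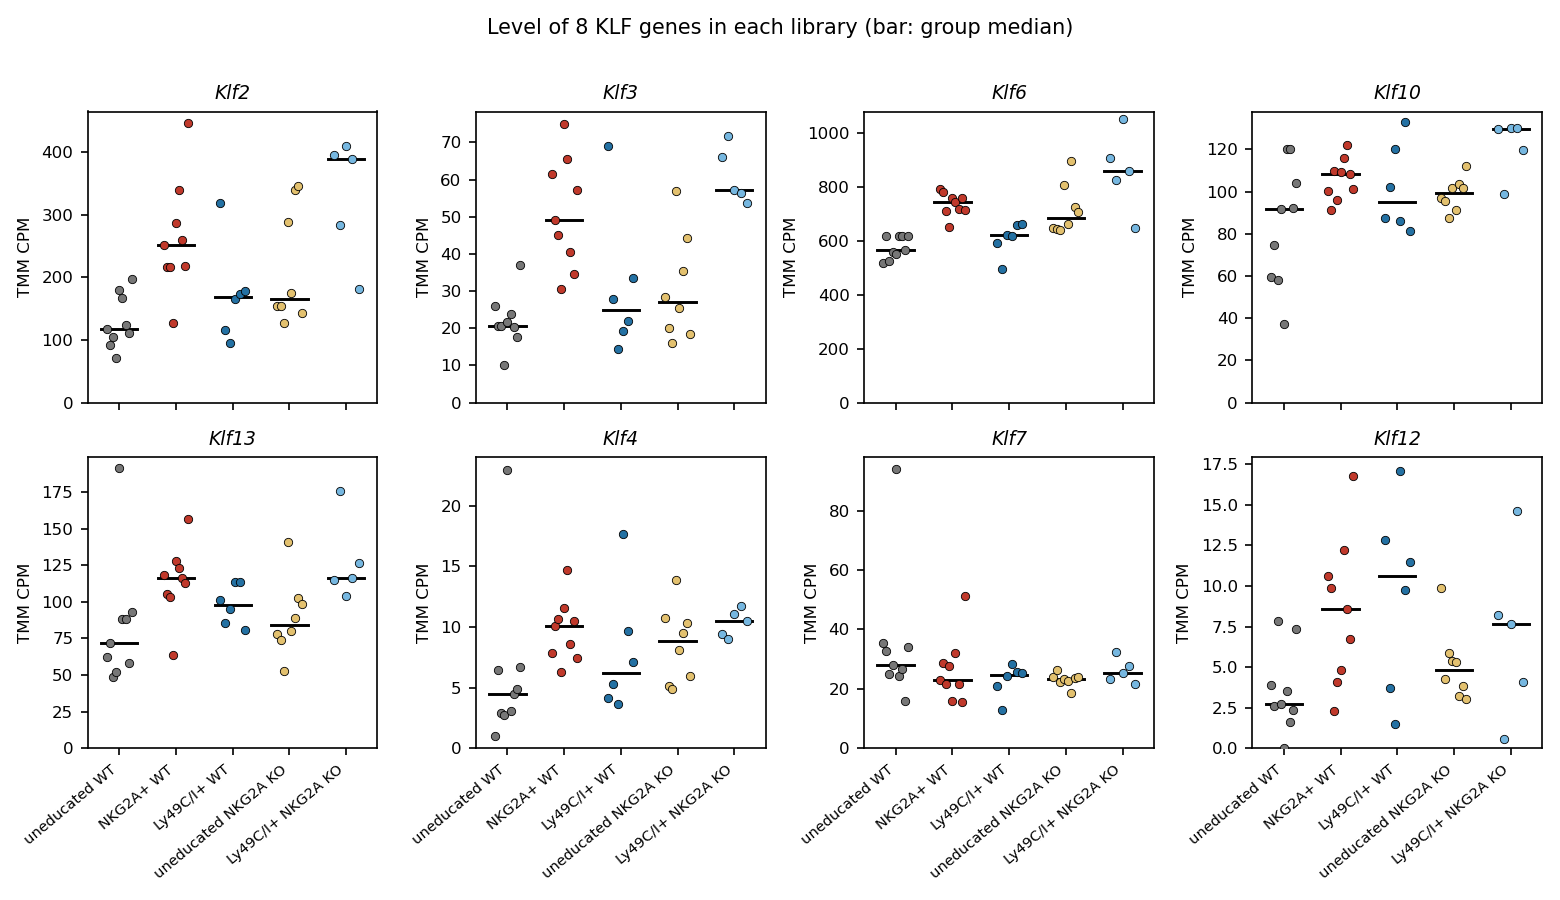
CPM of each member (linear axes from 0) in every library, by group; points are libraries and horizontal lines group medians. Klf6 separates the 9 NKG2A+ from the 9 uneducated WT libraries without overlap, and a single uneducated WT library stands above the rest for Klf4, Klf7 and Klf13.

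Uneducated WT library 5 decided the result for 2 members. Klf13 ranged from 48.6 to 192 CPM (median 72.0) in uneducated and from 63.7 to 157 CPM (median 116) in NKG2A+ libraries, and the highest value of both groups was that of uneducated library 5. Its log2 fold change of 0.44 ± 0.22 (SE) had an adjusted p of 0.196 by edgeR, and without that library it was 0.72 with an adjusted p of 0.00298. Klf4 ranged from 1.00 to 22.9 CPM (median 4.43) in uneducated and from 6.31 to 14.7 CPM (median 10.1) in NKG2A+ libraries. Again uneducated library 5 was the highest of both groups, while all 9 NKG2A+ libraries lay above the uneducated median. The log2 fold change was 0.65 ± 0.42 (SE, adjusted p = 0.333 by edgeR) with that library and 1.29 (adjusted p = 0.00557 by edgeR) without it. The study's figure legend gives 9 and 9 libraries for this comparison, while its table lists 8 and 8 without number 5. Both members also passed with library 5 of both groups left out (8 and 8 libraries). There Klf13 was at 0.69 (adjusted p = 0.00647 by edgeR) and Klf4 at 1.25 (adjusted p = 0.0113 by edgeR).

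Klf10 and Klf7 did not pass. Klf10 ranged from 37.3 to 120.2 CPM (median 91.7) in uneducated and from 91.0 to 122 CPM (median 108) in NKG2A+ libraries (log2 fold change 0.35 ± 0.17 SE, adjusted p = 0.172 by edgeR). Klf7, a factor better known from neurons, ranged from 15.7 to 94.0 CPM (median 28.0) and from 15.6 to 51.3 CPM (median 23.0), in the same order. Its log2 fold change of -0.42 ± 0.29 (SE, adjusted p = 0.369 by edgeR) became 0.01 with library 5 of both groups left out, so its sign rests on those libraries. Both highest values came from libraries with few detected genes, uneducated WT 5 and NKG2A+ WT 9.

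Klf12 was under the filter on low counts in this comparison and was tested alone. It ranged from 0 to 7.87 CPM (median 2.69) in uneducated and from 2.31 to 16.8 CPM (median 8.61) in NKG2A+ libraries, and the library at 0, uneducated WT 5, allows up to 0.186 CPM. Of the 9 NKG2A+ libraries, 5 lay above every uneducated one. The difference of means was 1.13 on the log2(CPM + 1) scale, with a two-sided exact permutation p of 0.0114, 1 of 4 such tests made for members under the filter and not adjusted over them.

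Genes that KLF2 is known to control in lymphocytes were described beside it, from a list of 7 trafficking and quiescence genes of which 6 were tested. Of these, 3 were higher in NKG2A+ cells and 0 lower by edgeR, with a median log2 fold change of 0.75 over the 6. S1pr1, the egress receptor, averaged 42.5 CPM in NKG2A+ and 12.0 CPM in uneducated libraries (log2 fold change 1.84, adjusted p = 0.00936 by edgeR). Itgb7, the beta-7 integrin, averaged 524 and 199 CPM without overlap of the libraries (1.41, adjusted p = 3.24e-05 by edgeR). S1pr5, the receptor for NK cell egress, also rose (1.503, adjusted p = 0.00178 by edgeR). Cd69, whose product opposes S1PR1 at the cell surface, averaged 151 and 143 CPM, and its log2 fold change of 0.09 (adjusted p = 0.637 by edgeR) turned to -0.24 with offsets for GC content and length. S1pr1, Itgb7 and S1pr5 passed in all 11 alternatives and without each library in turn.

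Other lists around the family moved in few members. Of the 9 other KLF genes 4 were tested, and Klf11 was higher (log2 fold change 0.56, adjusted p = 0.0391 by edgeR). The Klf11 call held in 6 of 11 alternatives and was lost without uneducated WT 1, 4 or 8 or NKG2A+ WT 1, 2, 3, 4 or 5, where the adjusted p reached at most 0.0839. Among 7 genes of the kinase cascade and factors upstream of Klf2 and Klf4, Mef2c was lower (-1.01, adjusted p = 0.000879 by edgeR) and the other 6 did not pass. Of 6 corepressors Ctbp2 (-0.64) and Sin3b (-0.24) were lower, of 3 coactivators Kat2b was higher (1.35), and of 3 ubiquitin ligases 0 passed, with 0 at an unadjusted p under 0.05 by edgeR and 0 called by DESeq2. Of 7 genes of the TGF-beta pathway around Klf10, Smad3 was higher (0.82) and Tgfbr2 lower (-0.37). Sin3b held in 6 of 11 alternatives and was lost without uneducated WT 3, 4, 7, 8 or 9 or NKG2A+ WT 1, 2, 3, 4, 5 or 9 (adjusted p up to 0.0898 by edgeR), whereas Mef2c, Ctbp2, Kat2b, Smad3 and Tgfbr2 passed in all 11 and without each library. Ccl5, the chemokine gene that KLF13 activates in T cells, averaged 2425 CPM in NKG2A+ and 1097 CPM in uneducated libraries without overlap (1.15, adjusted p = 3.57e-05 by edgeR). Of 9 SP genes, the relatives that bind the same boxes, 4 were tested and 0 passed by edgeR or DESeq2, with 2 at an unadjusted p under 0.05.

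Markers of NK cells and of other cells moved along with these genes, and their part in the results was not tested. Of 6 NK markers 5 were higher in NKG2A+ than in uneducated WT cells, and their sum was 3838 to 5913 CPM in uneducated and 5749 to 7471 CPM in NKG2A+ libraries. Of 4 T cell markers tested Cd3d and Cd3e were higher, and the sum of all 6 was 85.8 to 186 and 91.2 to 222 CPM, with no marker at 0 throughout either group. Hbb-bs, an adult globin gene, was the 1 of 3 erythroid markers that was higher, and these summed to 116 to 934 and 508 to 1881 CPM. Pecam1 was lower and made up nearly all of the endothelial sum (207 to 346 and 121 to 205 CPM), of which Emcn was at 0 in every uneducated and Tek in every NKG2A+ library. Epcam was lower, in an epithelial and trophoblast sum of 47.2 to 121 and 19.7 to 77.1 CPM in which Tpbpa was at 0 in every NKG2A+ library. Of 13 immediate early and dissociation genes Ier2, Atf3, Dusp1 and Nr4a1 were higher. Ier2 held in 8 of 11 alternatives and without 8 of the 18 libraries, and Atf3 in 9 of 11 and without 14 of the 18.

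Ly49C/I+ cells of WT mice were next compared with the same uneducated libraries. No member passed the test, and Klf2, Klf3 and Klf6 lay within the uneducated range in 5, 5 and 2 of the 6 Ly49C/I+ libraries. Of 6 members tested by edgeR 0 passed, with 0 at an unadjusted p under 0.05, 0 by DESeq2 and 0 by the likelihood ratio test, against 9.30% of the 9292 genes tested. Log2 fold changes were positive for 5 of the 6, with a median of 0.26 over the members and 0.00 over all genes.

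Klf2 ranged from 95.1 to 318 CPM (median 169) in Ly49C/I+ libraries, and 1 of the 6, library 1, lay above all uneducated libraries (log2 fold change 0.43 ± 0.24 SE, adjusted p = 0.285 by edgeR). Klf3 ranged from 14.3 to 69.2 CPM (median 24.9), again with library 1 alone above the uneducated range (0.51 ± 0.30, adjusted p = 0.320 by edgeR). Klf6 ranged from 495 to 664 CPM (median 621) and overlapped the uneducated libraries at both ends (0.08 ± 0.08, adjusted p = 0.546 by edgeR). Library 1 also stood apart from the other 5 of its group for Klf2 and Klf3.

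Klf10 ranged from 81.3 to 133 CPM (median 94.8) in Ly49C/I+ libraries, Klf13 from 80.9 to 114 CPM (median 98.1) and Klf7 from 12.9 to 28.4 CPM (median 24.7). Their log2 fold changes were 0.29 ± 0.21, 0.23 ± 0.25 and -0.63 ± 0.32 (SE), with adjusted p-values of 0.427, 0.632 and 0.238 by edgeR. Without uneducated library 5, Klf13 passed at 0.51 with an adjusted p of 0.0376 by edgeR. That library also held the highest uneducated Klf7 (94.0 CPM, next 35.5). Klf4 ranged from 3.65 to 17.7 CPM (median 6.21) and Klf12 from 1.47 to 17.1 CPM (median 10.6), and both were under the filter. On the log2(CPM + 1) scale Klf4 differed by 0.50 (two-sided exact permutation p = 0.305) and Klf12 by 1.15 (two-sided exact permutation p = 0.0456). With 0.5 in place of 1 added to the CPM, the exact permutation p of Klf12 was 0.0503.

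Of the 6 trafficking genes tested 0 passed by edgeR or DESeq2, with 2 at an unadjusted p under 0.05. S1pr1 averaged 4.24 CPM in Ly49C/I+ libraries, 2 of them at 0 (log2 fold change -1.48 ± 1.06 SE, adjusted p = 0.420 by edgeR), and Itgb7 276 CPM (0.49, adjusted p = 0.215). Cd69 averaged 143 CPM in both groups (0.00, adjusted p = 0.998 by edgeR, and -0.09 with GC content and length offsets). Ccl5 averaged 1448 CPM (0.40, adjusted p = 0.197 by edgeR). Mef2c was lower (-0.67, adjusted p = 0.0316 by edgeR), as were the corepressors Ctbp2 (-0.65) and Hdac2 (-0.52), and the TGF-beta inhibitor Smad7 was higher (0.74). Ctbp2 held in 5 of 11 alternatives and without 3 of the 15 libraries (uneducated WT 6 or 7 or Ly49C/I+ WT 2), Mef2c in 10 of 11 and without 6 of the 15, and Smad7 in 9 of 11 and without 6 of the 15, with adjusted p-values up to 0.118 by edgeR. Hdac2 held without each library but not with GC content and length offsets (adjusted p = 0.0550 by edgeR). Beside these, Tbx21 was the 1 NK marker of 6 that was higher (sum 4920.0 to 6591 CPM in Ly49C/I+ libraries). Pecam1 and Epcam were lower (endothelial sum 140.0 to 218 CPM, epithelial and trophoblast sum 26.4 to 45.0 CPM), and Junb, Ier2 and Dusp1 were higher among 13 immediate early genes, Ier2 not without Ly49C/I+ WT 7. The part of these markers was not tested.

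The direct comparison of NKG2A+ with Ly49C/I+ WT cells gave 1 member of 8 past the threshold, Klf6, against 2.73% of the 9308 genes tested, or 1.31% counting higher genes alone. It shares libraries with both comparisons above. Log2 fold changes were positive for 7 of 8 members, with a median of 0.23 and of 0.00 over all genes. The log2 fold change of Klf6 was 0.27 ± 0.06 (SE, adjusted p = 0.0333 by edgeR), and 8 of the 9 NKG2A+ libraries lay above every Ly49C/I+ library. This call held in 5 of 11 alternatives and was lost without any 1 of NKG2A+ WT 1, 2, 5 or 8 or Ly49C/I+ WT 1, 2, 4 or 5, with adjusted p-values up to 0.0712, and with GC content and length offsets it was 0.12 with an adjusted p of 0.550.

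Klf2 and Klf3 did not pass between the educated populations, at 0.58 ± 0.25 (SE, adjusted p = 0.209 by edgeR) and 0.71 ± 0.29 (SE, adjusted p = 0.193 by edgeR). Both passed once Ly49C/I+ WT library 1 was left out, at 0.84 (adjusted p = 0.0479 by edgeR) and 1.11 (adjusted p = 0.0140 by edgeR). That library held the highest Klf2 and Klf3 of its group. The other members were at 0.28 for Klf4, 0.20 for Klf13, 0.19 for Klf7, 0.05 for Klf10 and -0.17 for Klf12, with adjusted p-values of 0.484 or more by edgeR.

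In NKG2A+ cells 2 of the 6 trafficking genes stood higher than with Ly49C/I. Itgb7 (log2 fold change 0.91, adjusted p = 0.00660 by edgeR) passed in all 11 alternatives and without each library. S1pr1 (3.31 ± 0.83 SE, adjusted p = 0.0379 by edgeR) separated the groups without overlap, with counts of 0 in Ly49C/I+ WT 4 and 5 and of 1 in library 8. Its call was lost without NKG2A+ WT 1, 2, 4, 5, 6, 7 or 8 or Ly49C/I+ WT 2 or 7, with adjusted p-values up to 0.0892. It was also lost with no filter (adjusted p = 0.109 by edgeR), with a 1 CPM filter (0.0551) and with a block by title numbers (0.0800). Cd69 was at 0.08 (adjusted p = 0.794 by edgeR), or -0.14 with GC content and length offsets. Ccl5 was higher (0.73, adjusted p = 0.0168 by edgeR), as were Sp4 (0.79), the 1 of 4 SP genes tested that passed, and Hdac2 (0.43), while Tgfb1 was lower (-0.59). Sp4 held in 5 of 11 alternatives and without NKG2A+ WT 5 or 9 or Ly49C/I+ WT 5 but no other library, and Hdac2 in 5 of 11 and without 7 of the 15, with adjusted p-values up to 0.325 by edgeR. Tgfb1 held in 9 of 11 and Ccl5 in 10 of 11, both without each library. Of 3 other KLF genes tested 0 passed by edgeR or DESeq2, with 0 at an unadjusted p under 0.05. Ncr1 was the 1 of 6 NK markers and Cxcr6 the 1 of 5 tested markers of tissue-resident and ILC1-associated cells that was higher, and their part in these results was not tested.

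In NKG2A KO mice, Ly49C/I+ cells were compared with uneducated cells of the same genotype. Klf3 and Klf10 were higher in Ly49C/I+ cells, and Klf2, Klf6 and Klf13 missed the threshold with positive changes. Of 8 members tested 2 passed by edgeR and 3 by DESeq2, against 16.3% of the 9299 genes tested by edgeR, or 7.34% counting higher genes alone. All 8 log2 fold changes were positive, with a median of 0.38 and of 0.02 over all genes.

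Klf3 ranged from 15.9 to 56.9 CPM (median 27.0) in the 8 uneducated libraries and was at 66.2, 71.7, 57.2, 56.4 and 53.8 CPM in Ly49C/I+ libraries 4 to 8. All 5 lay above the uneducated median, and 3 lay above every uneducated library. Its log2 fold change came to 1.00 ± 0.26 (SE, adjusted p = 0.0145 by edgeR), and it passed in 8 of 10 alternatives and without each of the 13 libraries in turn. The call was lost with library number as a block (adjusted p = 0.0519 by edgeR), and with that block and GC content and length offsets (adjusted p = 0.106 by edgeR). Klf10 ranged from 87.4 to 112 CPM (median 99.2) in uneducated libraries and was at 129.6, 98.8, 129.9, 130.1 and 119.8 CPM in Ly49C/I+ libraries 4 to 8. Library 5 alone fell within the uneducated range. The log2 fold change of 0.31 ± 0.09 (SE, adjusted p = 0.0324 by edgeR) lost its call without any 1 of uneducated NKG2A KO 1, 2, 3 or 5 or Ly49C/I+ NKG2A KO 4, 6, 7 or 8, with adjusted p-values up to 0.0861. It held in 6 of 10 alternatives, and the adjusted p was 0.194 with all 5 groups in 1 fit.

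Klf2 ranged from 126 to 345 CPM (median 165) in uneducated libraries and was at 394, 283, 410, 389 and 182 CPM in Ly49C/I+ libraries 4 to 8. Here 3 of the 5 lay above every uneducated library, while libraries 5 and 8 lay within the uneducated range. The log2 fold change was 0.62 ± 0.25 (SE, adjusted p = 0.104 by edgeR), and without Ly49C/I+ library 8 it was 0.76 (adjusted p = 0.0499 by edgeR). Klf6 ranged from 639 to 899 CPM (median 687) in uneducated libraries and was at 908, 828, 1053, 859 and 648 CPM in Ly49C/I+ libraries. Only libraries 4 and 6 of these exceeded all uneducated ones. Its log2 fold change of 0.26 ± 0.10 (SE, adjusted p = 0.0949 by edgeR) passed once uneducated library 6 (0.32, adjusted p = 0.0388 by edgeR) or Ly49C/I+ library 8 (0.34, adjusted p = 0.0294 by edgeR) was left out, and with all 5 groups in 1 fit (0.28, adjusted p = 0.0272 by edgeR).

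Klf13 ranged from 52.5 to 141 CPM (median 84.5) in uneducated libraries and was at 115, 176, 104, 117 and 126 CPM in Ly49C/I+ libraries 4 to 8. Only library 5 lay above all uneducated ones, although all 5 exceeded the uneducated median. The log2 fold change of 0.52 ± 0.18 (SE) had an adjusted p of 0.0625 by edgeR and of 0.0335 by DESeq2, and it was 0.64 (adjusted p = 0.0113 by edgeR) without uneducated library 4. Klf4 was between 4.86 and 13.8 CPM in uneducated and between 9.00 and 11.7 CPM in Ly49C/I+ libraries, Klf7 between 18.5 and 26.3 and between 21.5 and 32.5, and Klf12 between 3.06 and 9.85 and between 0.573 and 14.6. Their log2 fold changes of 0.28, 0.19 and 0.46 had adjusted p-values of 0.450 or more by edgeR.

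Trafficking genes moved in both directions in NKG2A KO mice, with 3 of 6 higher and 2 lower by edgeR. S1pr5 (log2 fold change 1.03, adjusted p = 0.00505 by edgeR) passed in all 10 alternatives and without each library. Cd69 (0.71, adjusted p = 0.0188 by edgeR) was lost without Ly49C/I+ NKG2A KO 4 or 6, with no filter and with GC content and length offsets, with adjusted p-values up to 0.113 over the alternatives. The call of Itgb7 (0.63, adjusted p = 0.0443 by edgeR) was lost when 1 library was left out, other than uneducated NKG2A KO 4 or 7 or Ly49C/I+ NKG2A KO 5, with adjusted p-values up to 0.172, and it held in 6 of 10 alternatives. Ccr7, which guides cells to lymph nodes, was lower at 5.52 against 24.7 CPM without overlap (-2.16, adjusted p = 0.000642 by edgeR). S1pr1 was lower at 12.1 against 24.1 CPM (-0.98, adjusted p = 0.0480 by edgeR), a call lost without any 1 library other than uneducated NKG2A KO 2 or Ly49C/I+ NKG2A KO 7, with adjusted p-values up to 0.120. It held in 5 of 10 alternatives, and the adjusted p reached 0.415 with all 5 groups in 1 fit.

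Upstream of Klf2, Mef2c was lower (log2 fold change -0.95, adjusted p = 0.00760 by edgeR), and Foxo3 (0.73) and Mef2a (0.47) were higher. Ccl5 was higher (0.59, adjusted p = 0.0123 by edgeR), and the corepressor Hdac2 was lower (-0.38). Mef2c and Ccl5 passed in all 10 alternatives and without each library. Foxo3 held in 5 of 10 and was lost without uneducated NKG2A KO 2 or 3 or Ly49C/I+ NKG2A KO 4, 5 or 7, Mef2a held in 7 of 10 and was lost without Ly49C/I+ NKG2A KO 4, and Hdac2 held in 6 of 10 and without 5 of the 13 libraries, with adjusted p-values up to 0.200 by edgeR. Of 4 other KLF genes tested 0 passed, with 0 at an unadjusted p under 0.05 by edgeR and 0 by DESeq2. Of 7 TGF-beta pathway genes 0 passed by edgeR or DESeq2, with 3 at an unadjusted p under 0.05. Beside these, 5 of 6 NK markers were higher (sum 4774 to 6327 CPM in uneducated and 6425 to 7477 CPM in Ly49C/I+ libraries) and Epcam was lower (epithelial and trophoblast sum 35.2 to 76.4 and 10.1 to 33.8 CPM). Tnfsf10 was higher, the 1 of 4 tested markers of tissue-resident and ILC1-associated cells. Of 13 immediate early genes Junb, Ier2 and Dusp1 were higher, though none of them without Ly49C/I+ NKG2A KO 4, and Ier2 held in 4 of 10 alternatives. The part of these signals in the results was not tested.

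**Figure D3:**
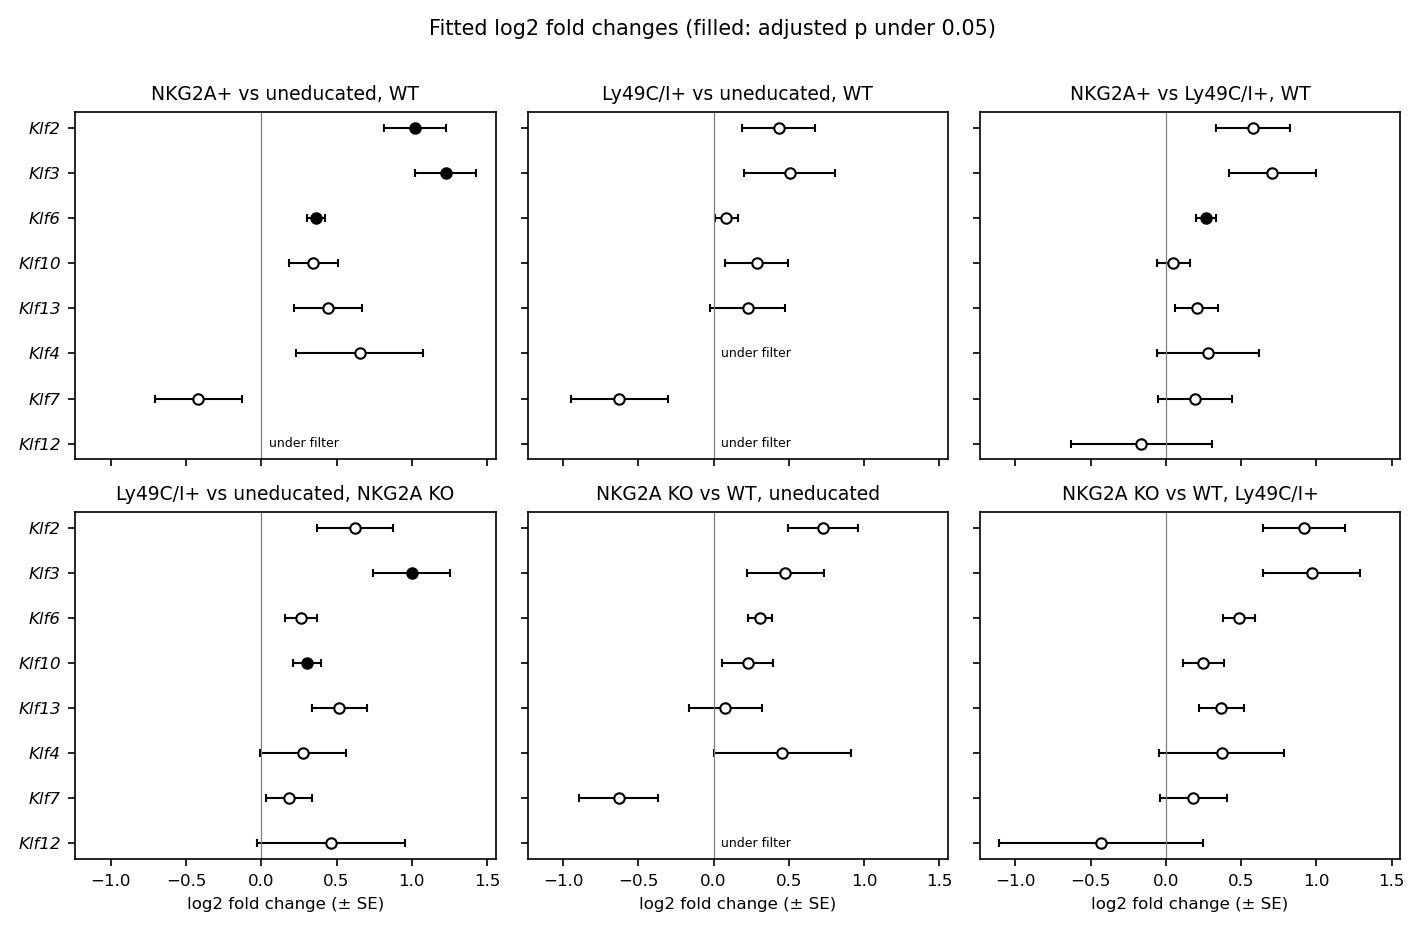
Log2 fold change (x axes) of each member (rows) in the 6 pairwise comparisons, as points with the SE as bars, by edgeR; members under the filter carry no point, and filled points have an adjusted p under 0.05. Filled points are Klf2, Klf3 and Klf6 for NKG2A+ against uneducated WT cells, Klf6 for NKG2A+ against Ly49C/I+ WT cells, and Klf3 and Klf10 for Ly49C/I+ against uneducated NKG2A KO cells.

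Genotypes were compared within each population. Among uneducated cells, Klf2 and Klf6 had higher values and Klf7 lower values in NKG2A KO than in WT libraries, but no member passed after adjustment. Of 7 members tested by edgeR 0 passed, with 3 at an unadjusted p under 0.05, 0 by DESeq2 and 0 by the likelihood ratio test. Of all 9288 genes tested 0% passed by edgeR, with 619 at an unadjusted p under 0.05, 1 by DESeq2 and 1 by the likelihood ratio test. Klf6 did not overlap, with all 8 NKG2A KO libraries above the 9 WT libraries (log2 fold change 0.31 ± 0.08 SE, unadjusted p = 0.000828, adjusted p = 0.507 by edgeR). How many of all genes did not overlap is not given here either. Klf2 was at 0.73 ± 0.23 (SE, unadjusted p = 0.00493, adjusted p = 0.509 by edgeR), with 3 of the 8 NKG2A KO libraries above every WT library and all 8 above the WT median. Klf7 was at -0.63 ± 0.26 (SE, unadjusted p = 0.0250, adjusted p = 0.705 by edgeR), and all 8 NKG2A KO libraries lay below the WT median. The WT group includes uneducated WT 5, far above the rest for Klf7 (94.0 CPM, next 35.5). Klf3 was at 0.48, Klf4 at 0.46, Klf10 at 0.23 and Klf13 at 0.08, with adjusted p-values of 0.805 or more by edgeR. Klf12, under the filter, differed by 0.59 on the log2(CPM + 1) scale (two-sided exact permutation p = 0.120). S1pr1 (1.00), Itgb7 (0.66), Ccl5 (0.62) and Cd69 (0.39) had positive log2 fold changes with adjusted p-values of 0.507 or more by edgeR.

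Among Ly49C/I+ cells the NKG2A KO values were also higher for most members, and whether a call was made depended on the tool and on the groups fitted. By edgeR's quasi-likelihood test 0 of 8 members passed, with 4 at an unadjusted p under 0.05, while DESeq2 and the likelihood ratio test each called Klf6. Of all 9344 genes tested 0% passed by edgeR, with 1001 at an unadjusted p under 0.05, 118 by DESeq2 and 62 by the likelihood ratio test. Klf6 was at 0.49 ± 0.11 (SE, adjusted p = 0.140 by edgeR, 0.0117 by edgeR with all 5 groups in 1 fit, and 0.00222 by DESeq2), and 4 of the 5 NKG2A KO libraries lay above every WT library. Klf2 was at 0.92 ± 0.27 (SE, adjusted p = 0.260 by edgeR), with 3 of 5 libraries above the WT range. Klf3 was at 0.97 ± 0.32 (SE, adjusted p = 0.332 by edgeR), and without Ly49C/I+ WT 1 it passed at 1.36 (adjusted p = 0.0294). Klf13 was at 0.37 ± 0.15 (SE, adjusted p = 0.420 by edgeR) with 4 of 5 libraries above the WT range. Klf4 (0.37), Klf10 (0.25), Klf7 (0.18) and Klf12 (-0.43) had adjusted p-values of 0.548 or more. Among the genes beside the members, S1pr1 (1.497), Cd69 (1.10), Ccl5 (0.81) and Itgb7 (0.81) had adjusted p-values of 0.116 or more by edgeR's quasi-likelihood test, although Cd69 did not overlap between the genotypes. DESeq2 and the likelihood ratio test each called Cd69 and Ccl5, and the likelihood ratio test also called Itgb7.

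The effect of Ly49C/I was itself compared between genotypes. Of 7 members tested 0 passed by edgeR, with 1 at an unadjusted p under 0.05, 0 by DESeq2 and 0 by the likelihood ratio test. Of all 9322 genes tested 0% passed by edgeR, with 414 at an unadjusted p under 0.05, 1 by DESeq2 and 0 by the likelihood ratio test. The difference, NKG2A KO minus WT, was 0.80 ± 0.38 for Klf7 (SE, adjusted p = 0.998 by edgeR), 0.48 ± 0.43 for Klf3, 0.28 ± 0.34 for Klf13, 0.18 ± 0.39 for Klf2 and 0.17 ± 0.13 for Klf6. The calls of Klf3 and Klf10 in NKG2A KO mice, with none in WT mice, were therefore not shown to differ between genotypes. Klf10 and Klf4 were at 0.01 ± 0.25 and -0.10 ± 0.67. For Klf7, the high value of uneducated WT 5 (94.0 CPM, next 35.5) enters this difference. Cd69 (0.70), S1pr1 (0.48), Ccl5 (0.18) and Itgb7 (0.13) did not pass either, each with an adjusted p of 0.998 by edgeR.

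Across the 5 groups, Klf2, Klf3, Klf4, Klf6, Klf10 and Klf13 had their highest mean in Ly49C/I+ NKG2A KO cells and their lowest in uneducated WT cells. Klf2 averaged 332 ± 97.9 CPM (SD, n = 5) in the former, 262 ± 89.8 CPM (n = 9) in NKG2A+ WT, 216 ± 92.3 CPM (n = 8) in uneducated NKG2A KO, 174 ± 78.1 CPM (n = 6) in Ly49C/I+ WT and 129 ± 42.3 CPM (n = 9) in uneducated WT cells. No neighbours in that order differed by more than the larger of their SDs. For Klf3, NKG2A+ WT (51.1 ± 14.9 CPM, SD) stood above its lower neighbour Ly49C/I+ WT (31.0 ± 19.8) by just more than that spread. For Klf6, uneducated NKG2A KO (718 ± 92.5 CPM, SD) did so over Ly49C/I+ WT (609 ± 61.8), and for Klf10, Ly49C/I+ NKG2A KO (122 ± 13.5 CPM, SD) over NKG2A+ WT (106 ± 9.75). Klf7 had its highest mean in uneducated WT cells and Klf12 in Ly49C/I+ WT cells, and none of their neighbours differed beyond the spread.

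Pooled over groups, libraries with high Klf2 for their group also had high Klf3, less so in Ly49C/I+ NKG2A KO cells. The relation was computed on each library's deviation from its group mean in log2(CPM + 1), over 37 libraries and with a two-sided p from 100000 permutations within groups, which can give no p under 1e-05, for 9 genes chosen after their values had been seen. Libraries of the same number may share a source, which these values do not separate. By Pearson's r and Spearman's rho Klf3 was at 0.77 and 0.72, Itgb7 0.63 and 0.65, Klf13 0.57 and 0.59 and Klf6 0.55 and 0.52. These 4 relations passed Benjamini-Hochberg adjustment over the 9, with adjusted permutation p-values for Pearson's r of 9e-05 for Klf3, 0.00027 for Itgb7, 0.0006 for Klf13 and 0.0025 for Klf6. Without the 2 libraries farthest from the median of Klf2, r was 0.72, 0.58, 0.55 and 0.57. Within the 4 groups of at least 6 libraries r lay between 0.72 and 0.88 for Klf3 and between 0.45 and 0.97 for Itgb7. It ran from 0.27 to 0.95 for Klf13 and from 0.23 to 0.82 for Klf6. Over the 5 Ly49C/I+ NKG2A KO libraries r was 0.22 for Klf3, 0.49 for Itgb7, -0.45 for Klf13 and 0.92 for Klf6. Klf4 was at r = 0.36, Cd69 at 0.34, S1pr1 at 0.26, Klf7 at 0.25 and Klf10 at 0.01, with adjusted permutation p-values of 0.0595, 0.0842, 0.163, 0.163 and 0.972. By Spearman's rho Klf4 (adjusted permutation p = 0.0234) and S1pr1 (adjusted permutation p = 0.0485) passed as well. These adjustments do not cover the choice of the 9 genes, and no share over all genes is given. Relations of this size were not particular to the family. On the same deviations Ccl3 and Ccl5, the genes closest to Klf2 over all libraries, were at r = 0.86 and 0.88.

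**Figure D4:**
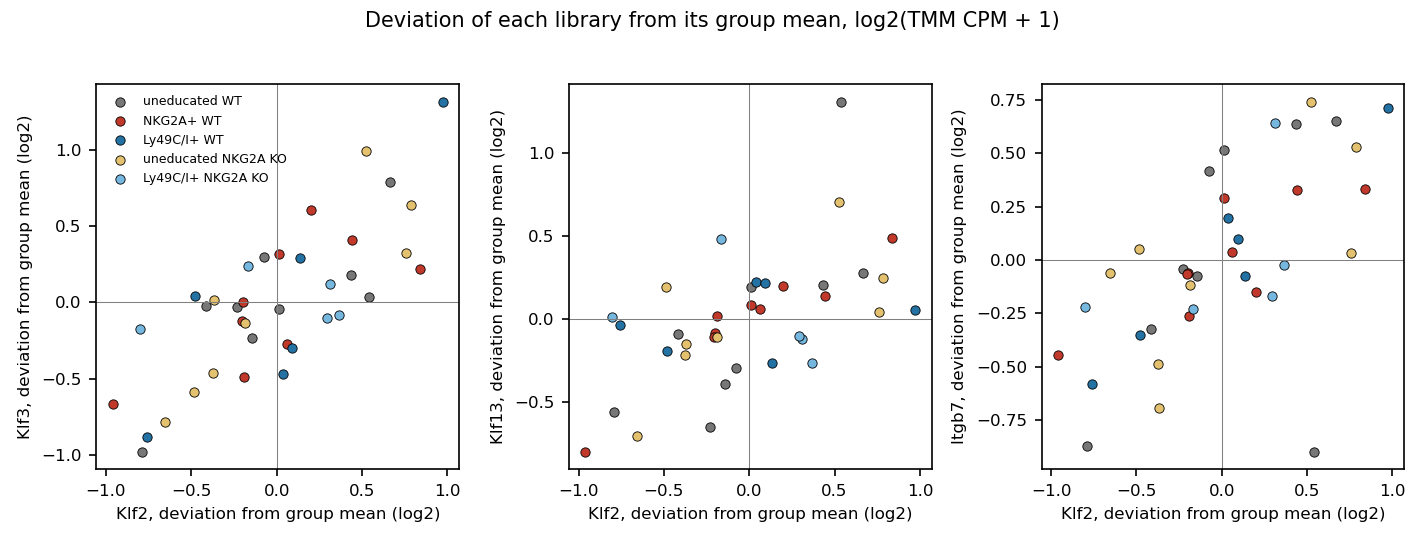
Deviation from the group mean, in log2(CPM + 1), of Klf3, Klf13 and Itgb7 (y axes) against that of Klf2 (x axis); points are the 37 libraries coloured by group. Over all libraries the points rise together in each panel, with r of 0.77, 0.57 and 0.63.

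The genes whose level followed each member most closely were taken over the 37 libraries, as the highest Pearson r in log2(CPM + 1) among 9437 other genes averaging at least 5 CPM. The libraries share the group differences described above, so these are descriptions with no test. Klf2 was closest to the chemokine genes Ccl3 (r = 0.92) and Ccl5 (r = 0.92), and Klf6 to Ccl4 (r = 0.85) and Tagap (r = 0.83). Klf3 was closest to Klf2 itself (r = 0.86) and to Adgre5, which encodes CD97 (r = 0.85). Klf10 was closest to Txnip (r = 0.82) and Rhoh (r = 0.82), and Klf13 to Pnrc1 (r = 0.87) and Gps2 (r = 0.82). Klf4 was closest to Cited2 (r = 0.77) and Zfp36l1 (r = 0.75), Klf12 to Fam129b (r = 0.75) and Fam13b (r = 0.72), and Klf7 to Tpr (r = 0.70) and Adipor2 (r = 0.69).

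**Figure D5:**
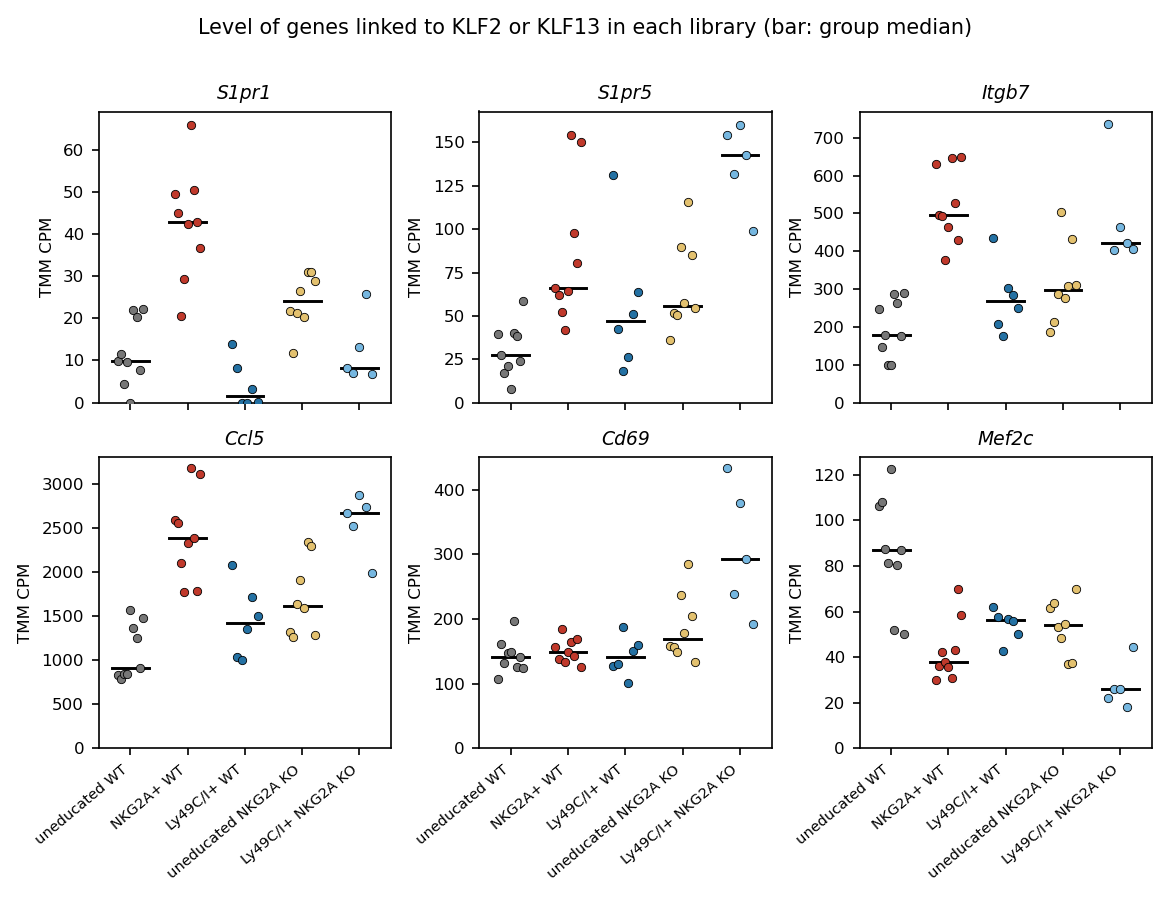
CPM of S1pr1, S1pr5, Itgb7, Ccl5, Cd69 and Mef2c (linear axes from 0) in every library, by group; points are libraries and lines group medians. Itgb7 and Ccl5 do not overlap between NKG2A+ and uneducated WT cells, while Cd69 averages 151 and 143 CPM there.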

How the data were processed

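The authors trimmed reads with Trim Galore 0.5.0, mapped them with STAR 2.7.1 to GRCm38 and deposited raw counts of reads on 53700 Ensembl genes per library, with no normalization. Neither the program used for counting nor its strand setting is given in the sources used here. Their tests used edgeR 3.26.5 in R 3.6.1 with CQN correction for GC content and length. The 5 summary lines of each file that name no gene were left out. As shares of all counted reads, those with no feature came to 2.69% to 6.83%, ambiguous reads to 4.04% to 4.60% and reads not uniquely placed to 11.3% to 13.8%. Replicate libraries were compared in 125 pairs within groups, and no pair differed by as little as sampling noise.

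From these counts CPM were computed on TMM-scaled library sizes. The quasi-likelihood test of edgeR 4.0.16 (R 4.3.3, Benjamini-Hochberg adjustment, threshold 0.05) was fitted to the compared groups alone, for genes reaching 5 CPM in 0.5 of their libraries or more. This filter follows the study's methods. Members under it were tested alone by two-sided exact permutation of log2(CPM + 1). Identifiers were matched to GENCODE M21, and promoters came from RefSeq. Alternatives were DESeq2 1.42.0, the likelihood ratio test, RLE factors, other filters, spline offsets with 5 degrees of freedom for GC content and length, a replicate block, a fit over all 5 groups, and leaving out each library. For NKG2A+ against uneducated WT cells, number 5 was also left out of both groups. The fits without the 4 libraries with fewest genes were chosen after seeing the data. Scripts were tested on simulated data. The named genes were the 8 members in every comparison and, from each list, at most 4 genes past the threshold with the largest change, plus S1pr1, Itgb7, Cd69 and Ccl5 throughout. The members and lists were chosen with earlier results of these data known, and some listed genes are not reported here. Markers of B cells, macrophages, granulocytes, stromal cells and tissue-resident cells were examined too.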

Additional observations from a re-analysis of the deposited data

Results flagged for a closer look

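Within groups of 4 to 10 libraries, the highest or lowest library of each member was compared with its nearest neighbour, and a library was taken to stand apart when that gap was a larger share of the group's range than Dixon's critical value allows. If values were normally distributed, chance would flag about 1 in 20 groups, or 2 of the 40 tested, and 7 stood apart. CPM need not be normally distributed, and the 40 groups share libraries between members, so the expected 2 is only a guide.

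Uneducated WT 5 held the highest value of its group for Klf13 (192 CPM, next 93.1), Klf7 (94.0 CPM, next 35.5) and Klf4 (22.9 CPM, next 6.72). NKG2A+ WT 9 held the highest Klf7 of its group, at 51.3 CPM against 32.1 in the next library. These 2 libraries were the lowest of the 37 in detected genes, with 13990 and 13982. Ly49C/I+ WT 1 held the highest Klf2 (318 CPM, next 178) and the highest Klf3 (69.2 CPM, next 33.5) of its group. Klf12 was at 9.85 CPM in uneducated NKG2A KO 1, against 5.88 in the next library.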

How the results depend on the processing

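Klf2, Klf3 and Klf6 between NKG2A+ and uneducated WT cells kept direction and call throughout. Klf12 and Klf4 were at under 10 CPM in most libraries, with 0 to 290 and 17 to 359 reads, and a part of depth was not tested. The cause of the changes below was not tested. With the other filters, which are looser, more genes enter, and fewer libraries enter where some are left out.

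The genes called between Ly49C/I+ and uneducated WT cells numbered 864, but 451 with no filter and 1528 with all 5 groups in 1 fit, and 461 (without Ly49C/I+ WT 7) to 1234 (without uneducated WT 5) with 1 library left out. Between NKG2A+ and Ly49C/I+ WT cells 254 were called (122 higher, 132 lower), but 104 with no filter, 442 by the likelihood ratio test, 558 by DESeq2, 154 with GC content and length offsets (58 higher, 96 lower), 164 with those and a replicate block, 56 with a replicate block by title numbers, and 147 (without Ly49C/I+ WT 7) to 306 (without Ly49C/I+ WT 1) with 1 left out. In NKG2A KO mice 1519 were called, but 889 with no filter, 759 with the replicate block, 609 with block and offsets, and 967 (without Ly49C/I+ NKG2A KO 4) to 1763 with 1 left out. Between genotypes, 0 became 1 by either other tool in uneducated cells, and in Ly49C/I+ cells 62 (likelihood ratio), 118 (DESeq2), 18 (all groups in 1 fit) and 0 to 15 (without Ly49C/I+ WT 1) with 1 left out, and 1 by DESeq2 for the genotype difference of the Ly49C/I+ effect. Klf12 between Ly49C/I+ and uneducated WT cells differed by 1.30 with 0.5 added (exact permutation p = 0.0503). By longest transcript Klf3 was at 7.22 and Klf10 at 33.0 CPM per kilobase.

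Equal library numbers were not treated as pairs in the main fits, by a rule that every correlation of deviations be above 0.1. That correlation was -0.017 to 0.260 over 9 NKG2A+ and uneducated WT pairs (median 0.1, against 0.0 for unequal numbers). It was 0.072 to 0.197 over 6 Ly49C/I+ and uneducated WT pairs (0.13 against -0.021). Over 6 NKG2A+ and Ly49C/I+ pairs it was 0.037 to 0.113 (0.079 against -0.02), and over 5 NKG2A KO pairs 0.022 to 0.258 (0.034 against -0.017). Libraries correlated best with their own number in 4 of 9, 5 of 6, 6 of 6 and 5 of 5 pairs, in that order. Whether equal numbers mark a shared source was not tested, so the main fits may leave out a real pairing. With the replicate block these comparisons gave 1418, 1004, 301 and 759 calls. Among members, the block gave Klf13 a call in NKG2A+ against uneducated WT cells (0.55, adjusted p = 0.0274 by edgeR) and Klf2 one in NKG2A KO mice (0.39, adjusted p = 0.0244), and took those of Klf6 between educated WT cells (adjusted p = 0.0780), and of Klf3 (0.0519, and 0.106 with offsets) and Klf10 (0.129, and 0.0759 with offsets) in NKG2A KO mice. Between Ly49C/I+ and uneducated WT cells it gave a call to Itgb7 (0.73, adjusted p = 0.0243).

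Signs turned in members, and in Cd69, where no call had been made. For the genotype difference of the Ly49C/I+ effect, the block gave -0.16 for Klf2, -0.19 for Klf10 (-0.15 with offsets) and -0.020 for Klf13, offsets gave 0.015 for Klf4, and Klf13 was at -0.076 without the libraries with fewest genes. With 1 library left out Klf4 ran from -0.72 to 0.32 and Klf10 from -0.072 to 0.12. Between NKG2A+ and Ly49C/I+ WT cells Klf7 was at -0.065 with the block (-0.17 with offsets too) and Klf10 at -0.037 with offsets (-0.066 with the block too), and with 1 left out Klf10 ran from -0.012 to 0.14 and Klf12 from -0.39 to 0.10. Between NKG2A+ and uneducated WT cells Klf7 was at 0.014 without number 5. In NKG2A KO mice Klf12 ran from -0.0052 to 0.76 with 1 left out. Between genotypes Klf7 was at -0.081 with block and offsets and Klf12 at 0.13 without the libraries with fewest genes in Ly49C/I+ cells, and in uneducated cells Klf13 was at -0.063 with offsets and ran from -0.052 to 0.34. Cd69 was at -0.24 with offsets and -0.22 with block and offsets for NKG2A+ against uneducated WT cells. For Ly49C/I+ against uneducated WT cells it was at -0.0056 with a 1 CPM filter, -0.088 with offsets, -0.053 with block and offsets, -0.070 with a block by title numbers and -0.092 to 0.082 with 1 left out, and for NKG2A+ against Ly49C/I+ cells at -0.14 with offsets, -0.22 with block and offsets and -0.0045 to 0.17 with 1 left out.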

Other observations

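Members of the family outside the 8 ran from undetected to moderate levels in uNK cells. Klf9, a factor induced by steroid hormones, ranged from 11.5 to 49.3 CPM over the 37 libraries, and Klf11, a relative of Klf10, from 12.1 to 59.0 CPM. Klf16 lay between 6.41 and 18.4 CPM, and Klf8 between 0 and 15.7 CPM. Klf5, known from epithelial cells, reached at most 7.21 CPM, Klf1, the erythroid factor, at most 3.12 CPM and Klf14 at most 1.79 CPM. Klf15 and Klf17 had 0 counts in all 37 libraries, which allows up to 0.226 CPM per library.

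Markers of tissue-resident and ILC1-associated cells differed between NKG2A+ and uneducated WT cells. Of 6 markers tested there by edgeR, Cxcr6, Cd200r1 and Il7r were higher and Itga1 was lower. Cxcr6 was also higher in NKG2A+ than in Ly49C/I+ WT cells (of 5 tested), and Tnfsf10 in Ly49C/I+ than in uneducated NKG2A KO cells (of 4 tested). Summed markers of B cells reached at most 6.13 CPM in any library, those of stromal and decidual cells 27.4 CPM, those of granulocytes 59.7 CPM and those of macrophages and monocytes 346 CPM.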
